A study of Mus musculus with 4 samples.

Results

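The genes described here encode the proteins of the mitochondrial ribosome. They were taken as the protein-coding genes whose symbol in the GENCODE annotation of mm10 starts with Mrpl or Mrps followed by a digit. The annotation held 78 such genes and 77 of them were in the count table, among 35275 gene identifiers in all. Mrpl33 was not analysed here, and 5 pseudogenes with symbols of the same form were not members.

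RNA was sequenced in bulk from natural killer (NK) cells, lymphocytes of innate immunity able to kill infected and transformed cells, enriched from mouse spleen and sorted as CD3-negative, NK1.1-positive. Mice were wild type (WT, C57BL/6) or labelled Irf4-/-, that is, lacking IRF4, a transcription factor of lymphocytes. B16-F10 cells, a mouse melanoma line, had been given into a vein 20 days before to the injected group of each genotype, and the control group of each genotype had not been injected. The 4 groups of genotype and injection had 1 library each, and the labels used here give neither the age of the mice, nor the number behind a library, nor the part of Irf4 that is deleted.

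Mitochondria keep a small genome of their own, and its messenger RNAs all encode subunits of the oxidative phosphorylation complexes. These are translated inside the organelle on a dedicated ribosome whose RNA comes from the mitochondrial genome, while every protein of it is encoded in the nucleus, made in the cytosol and imported. Many of its proteins have a counterpart in bacterial ribosomes, and others are found only in mitochondria. In lymphocytes, mitochondrial translation is known for its part in the growth and effector functions that follow activation.

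Because the members share a role but not a place in the genome, their promoters were compared first. Members lay on 17 chromosomes, and Mrpl46 and Mrps11 were the only pair within 50 kb of each other. These adjoin at chr7:78775236-78792989 in GRCm38, on opposite strands, with 413 bases in common. A RefSeq promoter window (GRCm38.p6, from before to just after the annotated start, of equal length for every gene) was matched for 68 of the 77 members, of which 3 had several starts and were read at the first listed. The windows were searched on both strands for GCGCATGCG, a form of the binding site of NRF1, for CCGGAAG, a core of ETS factors such as GABP, and for AAGATGGCG, a site of YY1. The end of the second motif and the start of the third are both AAG, so that 1 run of bases can match both. The 3 factors are textbook regulators of nuclear genes for mitochondrial proteins.

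The ETS letters were in 24 of the 68 member windows (35.3%), against 9.12% of 27025 windows of all genes and 21.8% of 7651 windows of genes whose mean reached 5 CPM (counts scaled to library size). For YY1 the figures were 8 members (11.8%) against 1.49% and 4.05%. For NRF1 they were 7 members (10.3%) against 1.81% and 4.43%. At least 1 of the 3 was in 34 members (50%), against 11.8% of all windows and 28.3% of those of expressed genes. A match is a description of the letters, not a bound site.

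The stretches below are the 100 bases before the start for 8 members, read 5′ to 3′ on the gene's strand, with matches on either strand in capitals. Values of all of these but Mrpl22 are given below. In these stretches Mrpl9, Mrpl17 and Mrpl22 hold the NRF1 letters, Mrpl22, Mrpl52, Mrpl58 and Mrps22 hold the ETS letters, and Mrps25 and Mrps30 hold none of the 3. In order they lie at chr3:94443236-94443335 (plus strand), chr7:105811088-105811187 (minus), chr11:58171564-58171663 (plus), chr14:54426809-54426908 (plus), chr11:115403652-115403751 (plus), chr9:98601680-98601779 (minus), chr6:92184024-92184123 (minus) and chr13:118387253-118387352 (minus).
Mrpl9: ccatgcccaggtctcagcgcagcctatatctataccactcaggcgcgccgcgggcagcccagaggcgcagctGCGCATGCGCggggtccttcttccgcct
Mrpl17: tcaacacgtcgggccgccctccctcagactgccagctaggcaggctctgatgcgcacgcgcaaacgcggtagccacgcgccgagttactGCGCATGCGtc
Mrpl22: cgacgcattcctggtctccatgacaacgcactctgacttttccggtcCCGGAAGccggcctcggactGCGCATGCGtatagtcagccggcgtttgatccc
Mrpl52: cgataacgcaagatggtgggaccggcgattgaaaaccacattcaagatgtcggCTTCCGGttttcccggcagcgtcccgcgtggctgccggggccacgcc
Mrpl58: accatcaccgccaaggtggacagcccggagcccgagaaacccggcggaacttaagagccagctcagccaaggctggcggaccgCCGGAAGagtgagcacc
Mrps22: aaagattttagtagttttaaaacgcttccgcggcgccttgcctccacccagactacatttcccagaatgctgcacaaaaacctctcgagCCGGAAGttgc
Mrps25: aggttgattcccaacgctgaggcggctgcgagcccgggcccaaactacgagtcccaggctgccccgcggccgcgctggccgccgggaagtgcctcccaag
Mrps30: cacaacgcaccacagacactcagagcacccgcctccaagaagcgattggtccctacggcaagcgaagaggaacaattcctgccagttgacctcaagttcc

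The libraries held 21104881 counts (WT control), 18640811 (WT injected), 15878159 (Irf4-/- control) and 18639455 (Irf4-/- injected). Irf4 itself was at 4.40 and 3.07 CPM in WT control and injected, and at 11.8 and 12.7 CPM in the libraries labelled Irf4-/- control and injected, so the reads of the gene go against the genotype labels and a genotype direction below is between libraries so labelled. A count over the whole gene cannot check a deletion of part of it. The 10 NK markers summed to between 11437 and 13714 CPM. Markers of other cells were far lower and uneven. The 7 B cell markers summed to 27.4 CPM in WT injected and to between 47.7 and 66.1 in the others, the 11 macrophage and monocyte markers to between 39.5 (WT control) and 90.2 (WT injected), the 6 erythroid markers to between 18.1 (WT injected) and 108 (Irf4-/- injected), and the 9 T cell markers to between 49.4 and 56.9. The 6 neutrophil markers stayed below 1 CPM in every library, and the melanoma genes Mlana, Tyr, Tyrp1 and Dct had 0 counts in all 4. Of these lists, 3 of the 11 macrophage markers passed the test described below, with Vcam1 and C1qc rising and Lyz2 falling with injection. The part of such cells in the values of the members was not tested, and in bulk RNA fewer cells of a type and less RNA per cell cannot be told apart.

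Mitochondrial ribosomal protein genes were expressed in every group at nearly the same total level. The 77 members summed to 2015 CPM (WT control), 2046 (WT injected), 2007 (Irf4-/- control) and 2071 (Irf4-/- injected). As a share of all counts this was 0.202% (exact binomial 95% interval 0.200 to 0.204), 0.204% (0.202 to 0.206), 0.201% (0.199 to 0.203) and 0.207% (0.205 to 0.209). The Irf4-/- injected library had the highest share, its interval overlapping that of WT injected and lying above those of both controls. These intervals cover counting error only.

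Levels between genes were compared as the deposited FPKM, which divides by gene length. A count was found in every library for 76 members, and their mean FPKM over the 4 libraries ran from 2.39 to 94.0, a 39.3-fold range, with a median over all 77 of 16.0. For scale, the 79 cytosolic ribosomal protein genes had a median of 653 FPKM and 84 nuclear oxidative phosphorylation genes one of 54.2. The 50 genes of the large subunit, where the peptide bond is formed and the exit tunnel lies, had a median of 17.4 FPKM. The 26 genes of the small subunit, which decodes the messenger RNA, had a lower median of 9.83. Members with a bacterial counterpart (47) had a median of 16.6 FPKM and those found only in mitochondria (29) one of 13.4.

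The 4 highest by mean FPKM were genes of the large subunit. Mrpl52, one of the proteins found only in mitochondria, was at 83.0 FPKM (WT control), 96.0 (WT injected), 87.3 (Irf4-/- control) and 109.8 (Irf4-/- injected). Mrpl24, a counterpart of bacterial L24, was at 70.6, 76.1, 69.1 and 71.7 in the same order. Mrpl9, whose promoter holds the NRF1 letters, was at 60.3, 72.1, 65.9 and 67.8. Mrpl4, which lines the exit tunnel in bacteria, was at 54.2, 50.2, 59.3 and 55.6. The lowest Mrpl52 value lay above the highest of Mrpl24, and the lowest of Mrpl9 above the highest of Mrpl4, while Mrpl24 and Mrpl9 overlapped. This order depends on the length used. Before division by length the means were 38.7 CPM for Mrpl52, 96.3 for Mrpl24, 110 for Mrpl9 and 70.5 for Mrpl4. The deposited values imply a length of 412 bases for Mrpl52, against 1109 annotated exon bases. For Mrpl24 these were 1339 and 2255, and for Mrpl9 1657 and 2703. In the small subunit the highest was Mrps21, at 59.5, 45.0, 57.3 and 53.8 FPKM, whose range overlaps that of Mrpl4 above it and of Mrps16 just below it, at 51.5, 43.8, 46.6 and 54.0.

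At the other end, Mrpl53 had 0 counts in all 4 libraries, which allows up to 0.142 to 0.189 CPM depending on the library, counting error only. Other annotated genes overlap 88.0% of its exon bases, on the same strand, so that reads from it may not have been assigned to it. Mrpl47 was at 2.41, 2.17, 2.83 and 2.17 FPKM and Mrpl35 at 3.58, 2.73, 2.39 and 2.67. These ranges overlap, so the order of this pair is not settled.

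**Figure D1:**
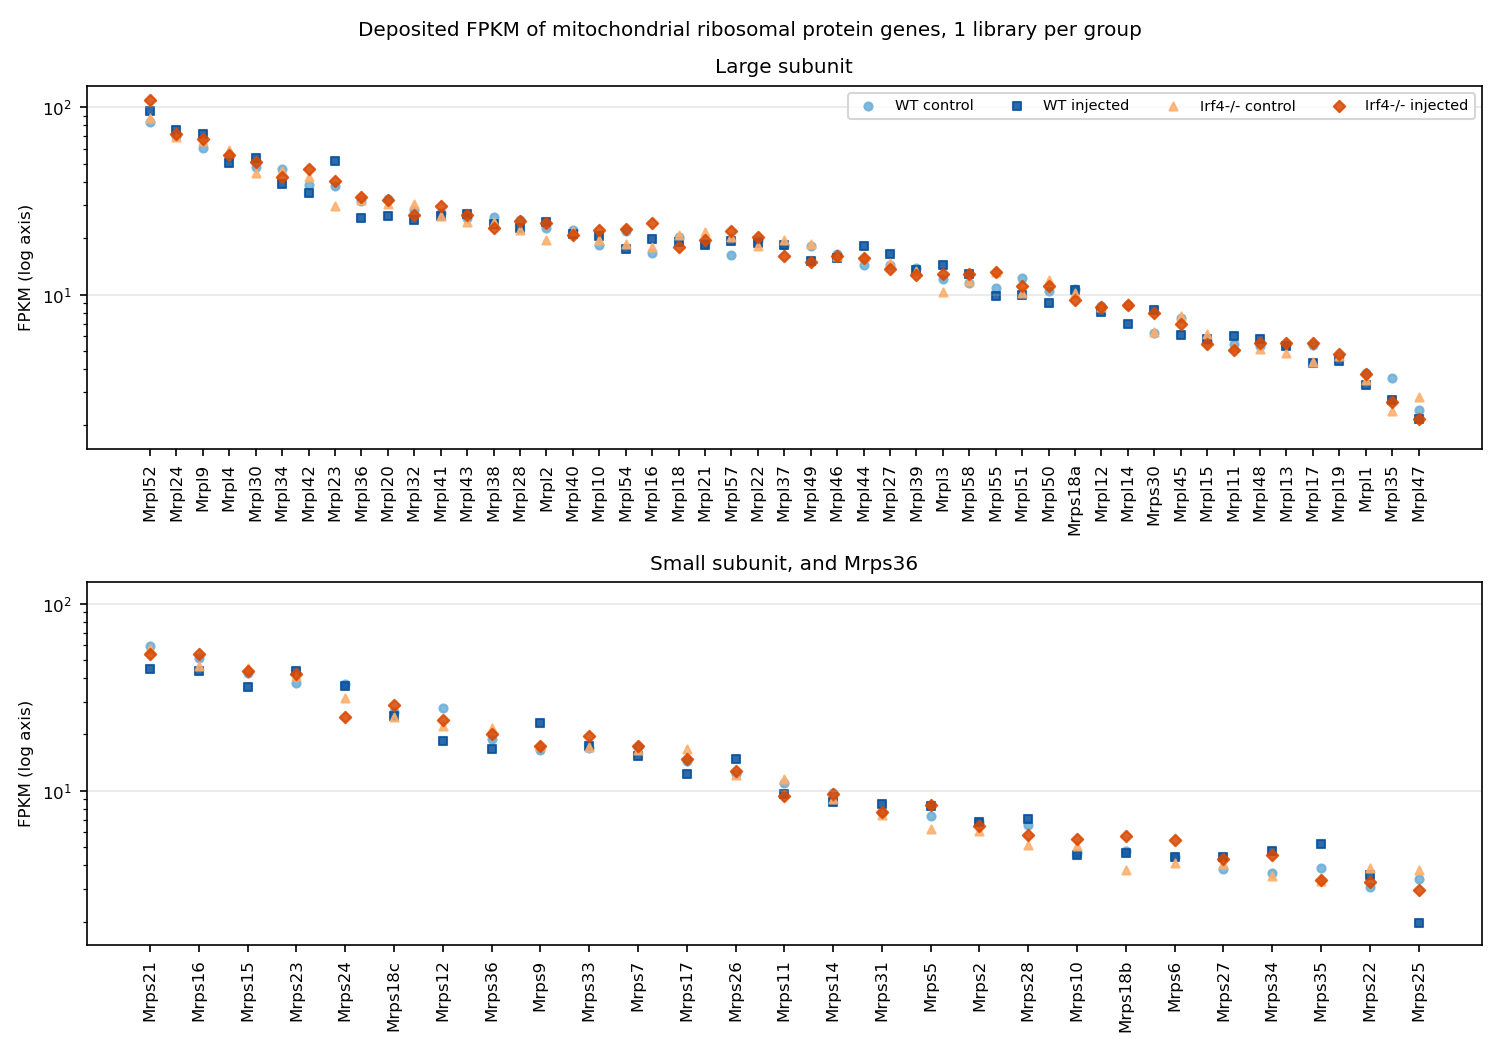
Deposited FPKM (log axis) of the 76 members with a count, ordered by mean and split into the large subunit (top) and the small subunit with Mrps36 (bottom), with 1 point per library. The members spread over a 39.3-fold range while the 4 points of most genes lie close together, and Mrps25, at the low end of the small subunit, has its WT injected point lowest.

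Most members varied little over the 4 libraries, but so did most expressed genes. Only differences of 1.5 times or more were rarer among the members. Of the 74 members whose mean reached 5 CPM, 43 (58.1%) had a highest value less than 25% above the lowest, against 55.0% of 9674 genes with that mean. The highest was at least 1.5 times the lowest in 4 members (5.41%), against 16.0% of those genes. The 4 were Mrps25 (1.90), Mrpl23 (1.76), Mrps35 (1.61) and Mrps18b (1.51). The steadiest was Mrpl46, with a coefficient of variation of 1.81% over 18.2, 17.5, 17.7 and 17.9 CPM, scaled between libraries by trimmed mean of M values (TMM) as all CPM here. Mrpl40 followed, at 26.0, 25.2, 26.0 and 24.7 CPM. Mrpl12, the stalk protein that has also been described to bind the mitochondrial RNA polymerase, was at 11.3, 10.7, 11.3 and 11.3 CPM. For all 3 the libraries differed by less than the counting error.

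With 1 library per group, a difference between 2 libraries has no replicate check. It is given as a log2 ratio of CPM with the exact 95% interval for counting error, and counted as higher or lower where the higher value was at least 25% above the lower, the interval of the ratio excluded 1 and the pair's mean was at least 5 CPM. This is a rule of size that covers counting error and not the spread between mice or library preparations. The typical interval of a member reached about 0.19 to 0.20 to either side. The 4 pairs come from 4 libraries, so that the fourth follows from the other 3, but the 2 genotype pairs have no library in common, nor do the 2 injection pairs.

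Between the injected libraries, Irf4-/- over WT, 7 of 75 members were higher and 4 lower, shares below those of all genes, of which 11.8% were higher and 10.6% lower. The median ratio of the members was 0.06 on the log2 scale, against -0.003 over 9685 genes. The higher members were Mrps25, Mrpl55, Mrpl42, Mrpl36, Mrpl17, Mrps12 and Mrpl54, and the lower ones Mrps35, Mrps24, Mrps9 and Mrpl23. Between the control libraries, 1 of 73 members was higher (Mrps22) and 2 were lower (Mrpl35 and Mrpl23), against 5.71% and 3.59% of all genes, and the median was -0.01.

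For injection in WT mice, 6 of 75 members were higher and 4 lower, against 12.9% and 12.7% of all genes, with a median of -0.03. The higher members were Mrps9, Mrpl23, Mrps35, Mrps30, Mrps34 and Mrpl44, and the lower ones Mrps25, Mrps12, Mrps21 and Mrpl35. For injection in Irf4-/- mice, 9 of 74 were higher and 3 lower, against 5.84% and 5.55% of all genes, with a median of 0.06. Here the higher members were Mrps18b, Mrpl23, Mrps5, Mrpl16, Mrps34, Mrpl17, Mrps30, Mrpl52 and Mrpl3, and the lower ones Mrpl47, Mrps25 and Mrps24. The count of higher members here was the 1 case, among the pairs and directions, in which the share of members counted was above that of all genes. At a minimum of 20 CPM it was 5 of 51 members (9.80%), against 233 of 7191 genes (3.24%). With the trend of ratios in gene length removed it was 7 of 74 (9.46%), against 5.75% of genes. It was 8 of 74 with library total scaling, with a prior count of 5 and with FPKM. No member reached 2-fold in any pair. Of all genes, 1.12% were 2-fold higher and 0.661% 2-fold lower between the injected libraries, 0.725% and 0.0828% between the control libraries, 1.11% and 0.789% for injection in WT and 0.134% and 0.216% in Irf4-/- mice. No median of the members lay farther than 0.06 from 0. The counting interval of a single member does not apply to a median over many genes, for which no interval was computed.

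The cytosolic ribosomal protein genes gave other values in the same libraries. Their medians were -0.34 and -0.19 in the injected and control genotype pairs, and 0.32 and 0.13 for injection in WT and Irf4-/- mice. Their ratios spread less, with a standard deviation over 78 genes of 0.11 in the injected genotype pair, where that of the 75 members was 0.23. In the control genotype pair these were 0.11 and 0.16. For injection they were 0.12 and 0.24 in WT and 0.08 and 0.20 in Irf4-/- mice. Members have far fewer counts per gene, so counting error adds more to their spread, and its part was not removed. Summed, they took 6.48% of counts in WT injected, against 4.67% to 5.23% in the other libraries, while the members stayed between 0.201% and 0.207%. Nuclear oxidative phosphorylation genes had medians of 0.14, 0.00, -0.05 and 0.05 in the same order of pairs. The difference between the 2 ribosomal families was not tested.

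**Figure D2:**
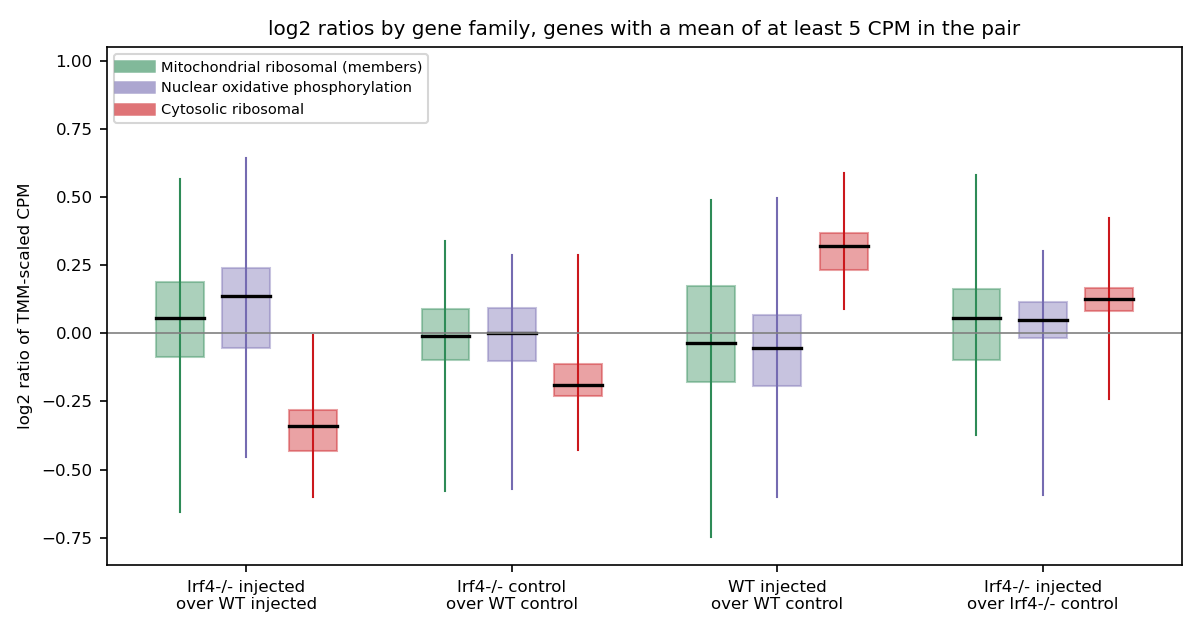
log2 ratio of TMM-scaled CPM in the 4 pairs of libraries for the members, nuclear oxidative phosphorylation genes and cytosolic ribosomal protein genes with a pair mean of at least 5 CPM. Boxes span the quartiles, black lines are medians and thin lines reach the lowest and highest gene. The medians of the members lie between -0.03 and 0.06, and those of the cytosolic family between -0.34 and 0.32.

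Split by role, the groups of several genes with the medians farthest from 0 were both of the small subunit. The 9 small-subunit proteins found only in mitochondria had a median of 0.23 for injection in WT mice. Of them 8 were above 0, the other being Mrps25, where 4724 of 9633 genes were. The counting interval lay above 0 in 4 of the 9 and below 0 in 1, against 2910 and 2970 of 9633 genes. For injection in Irf4-/- mice their median was 0.05, with 7 of 9 above 0 (4861 of 9702 genes). There the interval lay above 0 in 1 and below 0 in 1, against 1983 and 2015 of 9702 genes. Their genotype medians were -0.08 in the injected and 0.02 in the control pair. The 16 measured small-subunit genes with a bacterial counterpart had a median of -0.11 for injection in WT mice and of 0.18 for genotype in injected mice, both pairs that use the WT injected library. For the large subunit (49 genes) the medians were 0.06 and -0.004 for genotype in the injected and control pairs, and -0.04 and 0.06 for injection in WT and Irf4-/- mice. Members with the ETS letters had medians of 0.10, -0.02, -0.01 and 0.11 in that order, those with the NRF1 letters 0.10, 0.02, -0.03 and 0.16 (7 members, 6 of them measured between controls), the 8 with the YY1 letters -0.05, 0.04, -0.07 and -0.03, and those with none of the 3 motifs 0.08, -0.004, -0.06 and 0.05.

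In 24 members more than 5% of the exon bases overlap another annotated gene, and whether counting used strand is not given in the sources used here. The 53 with 5% or less had medians of 0.12, -0.04, -0.04 and 0.08 in the same order. Beside Mrpl53, the members described here with the largest overlap are Mrps34 (77.8%), Mrps25 (69.8%, with Nr2c2), Mrps18b (30.5%), Mrpl24 (26.3%, with Rrnad1), Mrpl47 (24.2%, with Ndufb5 and Actl6a), Mrps24 (15.4%, with Urgcp), Mrpl12 (13.1%) and Mrpl46 (12.2%, with Mrps11), whose reads cannot be assigned with certainty.

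A test over all 4 libraries was made with genotype and injection as additive terms in edgeR's quasi-likelihood model, which leaves 1 residual degree of freedom. The spread behind its p-values is how far the libraries depart from additivity, and may be technical. Of 76 members tested, 0 passed for genotype and 0 for injection at a Benjamini-Hochberg adjusted p under 0.05. Of all 11998 genes tested, 1.22% were higher and 0.258% lower for genotype, and 0.333% higher and 0.392% lower for injection. At an unadjusted p under 0.05, 0 members were higher and 3 lower for genotype, where 6.03% and 4.38% of all genes were, and 5 members were higher and 1 lower for injection, where 7.33% and 6.84% of all genes were. DESeq2 and limma-voom, run on the same design, also called 0 members for either term. At an unadjusted p under 0.05 DESeq2 had 0 members for genotype, and 1 higher and 1 lower for injection. The share of all genes at that threshold by DESeq2 is not given here, so these counts are not read as few or many. The median standard error of a member was 0.14, and the fitted changes lay between -0.45 and 0.36 for genotype and between -0.55 and 0.45 for injection.

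Mrps25, a small-subunit protein found only in mitochondria (ENSMUSG00000014551, chr6:92169525-92184033, minus strand, GRCm38), varied the most. It was at 20.4 CPM (WT control), 12.1 (WT injected), 22.9 (Irf4-/- control) and 17.9 (Irf4-/- injected). Both injected libraries lay below both controls. The log2 ratio for injection was -0.75 (-0.99 to -0.52) in WT and -0.35 (-0.57 to -0.14) in Irf4-/- mice. In the additive edgeR fit the change was -0.55 (SE 0.17, adjusted p = 0.167). That adjusted p was 0.0437 with TMM factors computed over all genes with a count, and 0.0379 with no filter on low counts, so the call depends on these settings, and it ranged from 0.0379 to 0.647 over all settings run. With injection as the only term over the 3 libraries other than WT injected, the edgeR change was -0.27 (adjusted p = 0.647). That fit leaves out the genotype term as well as the library.

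Mrpl23, which sits beside the exit of the peptide tunnel in the large subunit (ENSMUSG00000037772, chr7:142532686-142540747, plus strand), was the only member counted in both genotype pairs. It was at 27.1 CPM (WT control), 37.2 (WT injected), 21.2 (Irf4-/- control) and 28.7 (Irf4-/- injected). Each Irf4-/- library lay below the WT library of the same treatment, and each injected library above its control. The ratio for genotype was -0.37 (-0.54 to -0.21) with injection and -0.36 (-0.56 to -0.16) without it. For injection it was 0.45 (0.29 to 0.62) in WT and 0.44 (0.24 to 0.64) in Irf4-/- mice. Neither passed the edgeR test over all genes, with an adjusted p of 0.322 for genotype and 0.158 for injection, which ranged over the settings from 0.190 to nearly 1 and from 0.0558 to 0.687. No other annotated gene overlaps its exons. Of all genes, 1.17% were lower and 2.99% higher in both genotype pairs, and 0 members were higher in both.

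Mrps24, the counterpart of bacterial S3 on the small subunit (chr11:5703983-5715680, minus strand), was at 36.7 CPM (WT control), 36.2 (WT injected), 31.2 (Irf4-/- control) and 24.6 (Irf4-/- injected). Both Irf4-/- libraries were below both WT libraries. The genotype ratio was -0.56 (-0.73 to -0.38) in the injected and -0.24 (-0.40 to -0.07) in the control pair, and the edgeR change -0.40 (SE 0.14, adjusted p = 0.292). The gene lies in a stretch near the start of chromosome 11 where, of 54 tested genes, 6 were higher and 6 lower for genotype by that test. The stretch was chosen earlier for those calls, and its part in the value of Mrps24 was not tested.

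Mrps35, a small-subunit protein found only in mitochondria (chr6:147042764-147073991, plus strand), had the lowest ratio of any member in the injected genotype pair, at -0.65 (-0.88 to -0.44). It was at 17.8 CPM (WT control), 24.2 (WT injected), 15.1 (Irf4-/- control) and 15.3 (Irf4-/- injected). WT injected stood above the other 3 libraries, and the control pair had a ratio of -0.24 (-0.48 to -0.003). Its adjusted p for genotype in edgeR was 0.342. Mrps9, the counterpart of bacterial S9, was at 39.9, 56.1, 41.8 and 41.9 CPM in the order of WT control, WT injected, Irf4-/- control and Irf4-/- injected, and its genotype ratio was -0.42 (-0.56 to -0.29) between injected libraries and 0.07 (-0.08 to 0.22) between controls. For these 2 genes WT injected was the high library. It also had the highest cytosolic ribosomal share, whose part in these values was not tested.

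Mrps30, despite its name a protein of the large subunit found only in mitochondria, was higher in both injected libraries, at 9.88, 13.2, 10.1 and 12.7 CPM in the order of WT control, WT injected, Irf4-/- control and Irf4-/- injected. Its injection ratio was 0.42 (0.15 to 0.69) in WT and 0.34 (0.04 to 0.64) in Irf4-/- mice. Mrps34, which is found only in mitochondria and belongs to the small subunit, was at 6.85, 9.005, 6.60 and 8.53 CPM, with injection ratios of 0.39 (0.06 to 0.72) and 0.36 (0.01 to 0.74). With Mrpl23 these were the 3 members higher in both injection pairs, of 74 measured in both, and Mrps25 the 1 member lower in both. Of all genes, 2.58% were higher and 2.87% lower in both. None of the 3 higher members passed the edgeR test for injection, with adjusted p values of 0.381 for Mrps30, 0.451 for Mrps34 and 0.158 for Mrpl23.

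**Figure D3:**
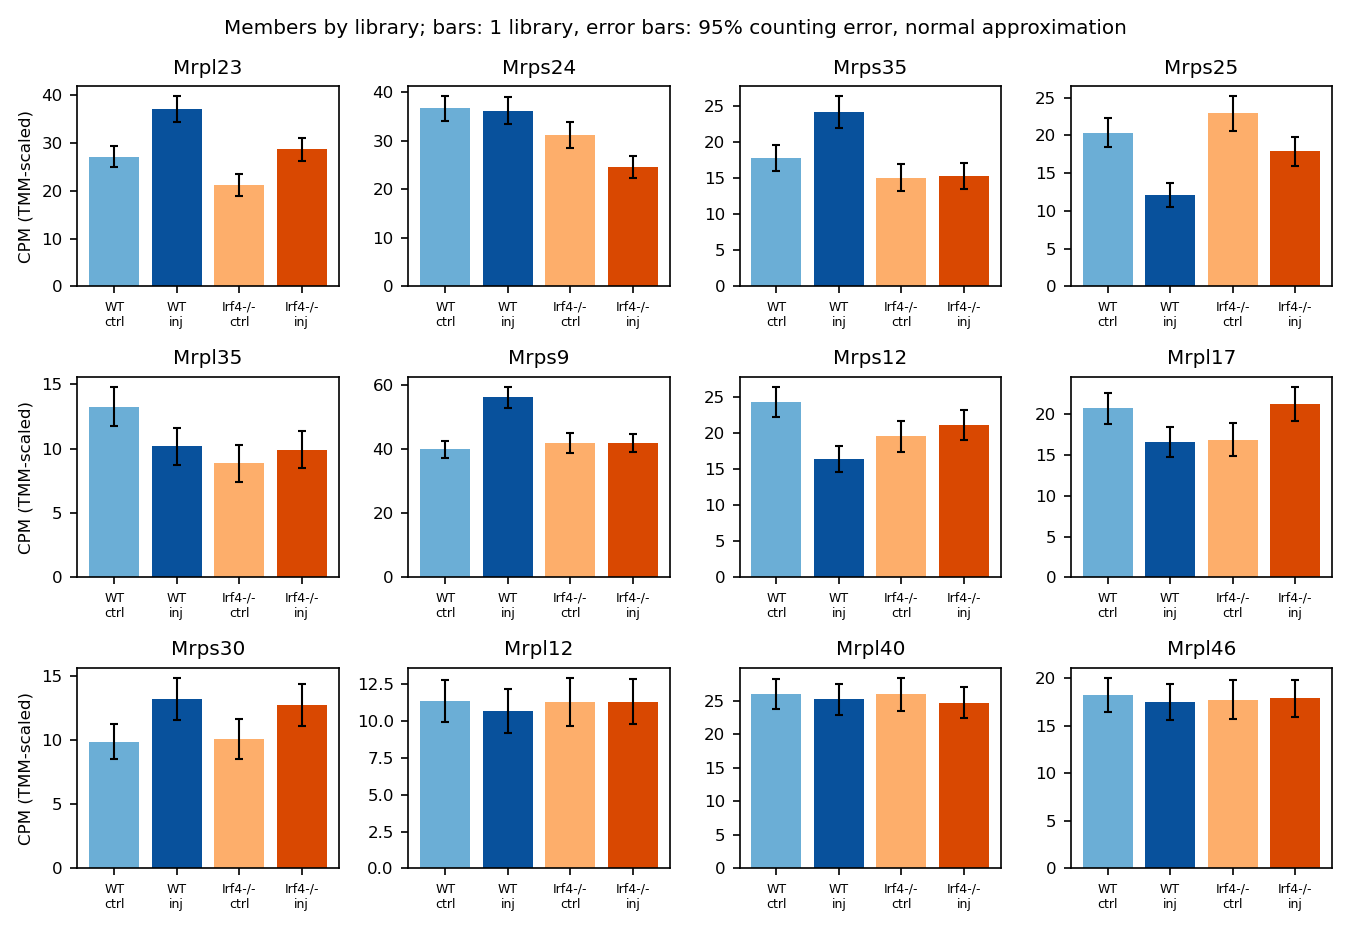
TMM-scaled CPM of 12 members in the 4 libraries, with 1 bar per library and error bars of 95% counting error (normal approximation). Mrps25 is lower and Mrpl23 and Mrps30 are higher in both injected libraries, and the bars of Mrpl12, Mrpl40 and Mrpl46 differ by less than their error bars.

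Other members were counted as higher or lower in 1 or 2 pairs. Mrpl35, the counterpart of bacterial L35, was at 13.3 CPM (WT control), 10.2 (WT injected), 8.86 (Irf4-/- control) and 9.92 (Irf4-/- injected), and WT control was the highest. Its genotype ratio was -0.58 (-0.89 to -0.29) in the control and -0.04 (-0.34 to 0.26) in the injected pair, and its injection ratio in WT mice was -0.38 (-0.66 to -0.11). Mrps18b, 1 of 3 mitochondrial relatives of bacterial S18, was at 5.15, 5.07, 4.08 and 6.17 CPM, with a ratio of 0.58 (0.14 to 1.06) for injection in Irf4-/- and -0.02 (-0.44 to 0.39) in WT mice. The other relatives varied less, with Mrps18a at 23.8, 23.7, 22.6 and 20.8 CPM and Mrps18c at 21.5, 20.7, 20.2 and 23.6. Mrps18b had 65 to 115 counts per library, against 359 to 503 for Mrps18a and 322 to 455 for Mrps18c. Its counting error is therefore larger, and the part of that in its variation was not tested. Mrps5, the counterpart of bacterial S5, was at 32.8, 37.3, 27.9 and 37.7 CPM, with Irf4-/- control lowest and injection ratios of 0.18 (0.03 to 0.34) in WT and 0.43 (0.26 to 0.61) in Irf4-/- mice. Mrps21, whose bacterial counterpart is S21, was at 42.4, 32.3, 40.8 and 38.4 CPM, with WT injected lowest.

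In the genotype pairs, the mitochondria-specific Mrpl42 was at 25.5 CPM (WT control), 23.5 (WT injected), 28.2 (Irf4-/- control) and 31.2 (Irf4-/- injected). Mrpl55 had the same order of libraries, at 10.2, 9.22, 12.3 and 12.3 CPM. Both genes were higher in both Irf4-/- libraries than in either WT library, with ratios in the injected pair of 0.41 (0.23 to 0.59) and 0.42 (0.13 to 0.71) and adjusted p values in edgeR of 0.562 and 0.600. Mrpl57, at 37.8, 45.0, 46.9 and 50.4 CPM, was also lower in both WT libraries, with a control-pair ratio of 0.31 (0.17 to 0.46) and an adjusted p in edgeR of 0.531. Mrps22, a mitochondria-specific protein whose promoter holds the ETS letters, was at 10.1, 11.8, 12.8 and 10.8 CPM, with a genotype ratio of 0.34 (0.06 to 0.63) between controls and -0.13 (-0.41 to 0.15) between injected libraries. Mrpl47, a counterpart of bacterial L29, was at 8.08, 7.33, 9.49 and 7.29 CPM, with an injection ratio of -0.37 (-0.72 to -0.04) in Irf4-/- mice.

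Mrps12, the counterpart of S12 at the decoding centre, was at 24.3, 16.4, 19.5 and 21.1 CPM in WT control, WT injected, Irf4-/- control and Irf4-/- injected. WT control was highest and WT injected lowest. Its injection ratio was -0.57 (-0.78 to -0.36) in WT and 0.11 (-0.11 to 0.33) in Irf4-/- mice. Mrpl58, a large-subunit protein that is also a peptidyl-tRNA hydrolase, was at 29.7, 33.6, 30.5 and 33.4 CPM, within 0.18 of 0 on the log2 scale in every pair. Mrps36 carries a ribosomal name but is known as a subunit of the 2-oxoglutarate dehydrogenase complex. It was at 13.2, 11.8, 15.2 and 14.2 CPM, with genotype ratios of 0.26 (-0.002 to 0.53) and 0.20 (-0.05 to 0.45) in the injected and control pairs, whose intervals include 0.

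Pairs of libraries with none in common can be set against each other gene by gene. The genotype ratios of the injected and control pairs had the same sign in 38 of 73 members (52.1%), against 55.5% of 9513 genes. The injection ratios of WT and Irf4-/- mice had the same sign in 45 of 74 (60.8%), against 61.7% of 9523 genes. Across these members Pearson's r was 0.21 for genotype and 0.34 for injection, and over all genes 0.44 for both. These are descriptions across genes, which are not independent replicates and share the depth and composition of their libraries.

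**Figure D4:**
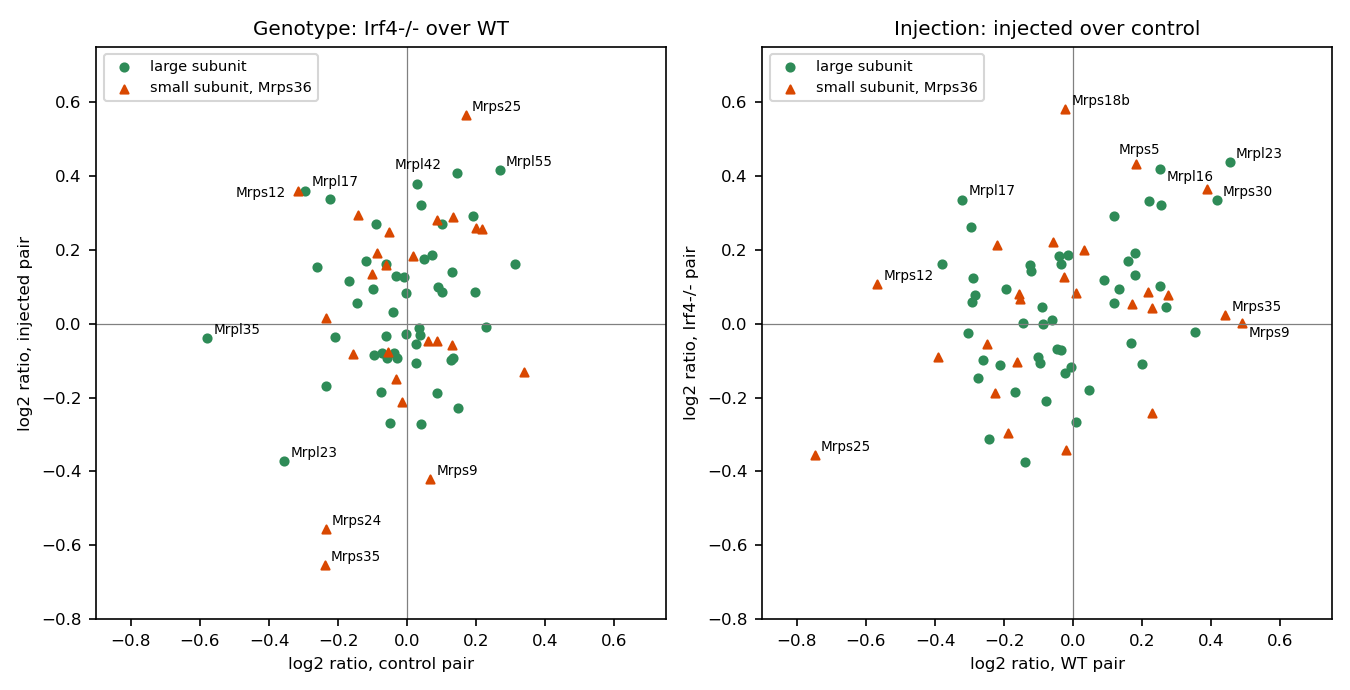
log2 ratio of each member in the 2 genotype pairs (left) and the 2 injection pairs (right), which have no library in common, with pair means of at least 5 CPM. Most members lie near the origin in both panels, Mrpl23 lies away from 0 on both axes in each panel, and Mrps25 does so in the injection panel.

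Genes around the mitochondrial ribosome were read from lists of its other subunits, translation factors, tRNA synthetases, assembly factors, genes of mitochondrial DNA expression and regulators, and 13 mitochondrial messenger RNAs. Lars2, the mitochondrial leucyl-tRNA synthetase, was the 1 gene of these that passed the additive edgeR test. It was at 76.8 CPM (WT control), 101 (WT injected), 59.6 (Irf4-/- control) and 65.0 (Irf4-/- injected). Both Irf4-/- libraries were below both WT libraries. Its log2 level fell with genotype by 0.51 (SE 0.10, edgeR adjusted p = 0.0408). DESeq2 gave an adjusted p of 0.139 and limma-voom 0.0519. With genotype as the only term over the 3 libraries other than WT injected, the edgeR change was -0.30 with an adjusted p of 0.416, so the call is lost in each. Over all settings its adjusted p ran from 0.000307 to 0.536.

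Of the 5 subunits with other names, 0 passed in edgeR, 0 had an unadjusted p under 0.05 in either term, and Dap3, a small-subunit protein, was at 58.0, 57.3, 56.7 and 52.2 CPM. Of 15 translation factors tested 0 passed, and 2 had an unadjusted p under 0.05, both lower with injection, where 6.84% of all genes were. Tufm, the elongation factor, was at 61.0, 44.7, 55.4 and 50.9 CPM in WT control, WT injected, Irf4-/- control and Irf4-/- injected. Of the 17 tRNA synthetases, 5 were higher for injection at an unadjusted p under 0.05, where 7.33% of all genes were, and Lars2 was the 1 lower for genotype. Among them Pars2, for proline, was at 5.77, 9.87, 6.22 and 9.55 CPM, higher in both injected libraries, with an adjusted p of 0.181 for injection in edgeR. Of 23 assembly factors and 10 genes of mitochondrial DNA expression 0 passed. Noa1, an assembly GTPase, was at 24.9, 14.5, 19.0 and 17.8 CPM.

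The regulators whose letters were sought in the promoters had similar levels in the 4 libraries. Nrf1 was at 66.2, 65.6, 64.2 and 61.6 CPM and Gabpa at 87.3, 86.1, 86.1 and 84.5 CPM in WT control, WT injected, Irf4-/- control and Irf4-/- injected. Yy1 was at 174, 158, 156 and 156 CPM. Of 9 regulators tested 0 passed in edgeR. Myc, which promotes ribosome production, was at 61.9, 74.8, 53.6 and 66.2 CPM, higher in both injected libraries, with an adjusted p of 0.217 for injection. Pprc1, a coactivator of the PGC-1 family, was at 48.8, 34.7, 48.2 and 38.5 CPM, lower in both injected libraries, with an adjusted p of 0.155.

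The messenger RNAs that this ribosome translates had other values than its protein genes in WT mice. The 13 mitochondrial messenger RNAs took 0.905% of counts (WT control), 1.14% (WT injected), 0.962% (Irf4-/- control) and 0.976% (Irf4-/- injected). Their median log2 ratio for injection was 0.51 over 10 measured genes in WT and 0.03 over 11 in Irf4-/- mice. For genotype it was 0.11 in the control pair, with 10 of 10 above 0, and -0.14 in the injected pair, with 2 of 11 above 0. The WT injection pair and the control genotype pair both use the WT control library. Mt-Co3 was the farthest from 0 in both, at 1.85 and 1.88. Mt-Co1, the most abundant, was at 4295, 5674, 4543 and 4613 CPM. Mt-Co3 had 107 counts in WT control, against 344, 301 and 313 in WT injected, Irf4-/- control and Irf4-/- injected. Mt-Co2 and mt-Atp6 were likewise lowest in WT control, with 207 and 130 counts. These are few counts beside those of mt-Co1, and the part of such genes in the medians was not tested. Of 12 tested 0 passed the edgeR test in either term, with 3 higher for injection at an unadjusted p under 0.05, where 7.33% of all genes were.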

How the data were processed

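The deposited values are raw whole-number counts of reads and the authors' FPKM. TopHat, edgeR and mm10 are named in the submitters' processing notes, and the sources used here give neither counting tool nor annotation nor use of strand. Members, promoter motifs and gene lists were chosen with earlier results of these data known. Of 35275 identifiers, 34490 matched a symbol in GENCODE for GRCm38 (mm10), from which positions and overlaps were taken.

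Genes reaching 1 CPM in 2 or more libraries were tested in edgeR 4.0.16 (R 4.3.3; glmQLFit and glmQLFTest, two-sided) with TMM factors over the genes tested. TMM factors over all genes with a count were run first and gave other call counts. The choice between these was made after both results were seen, following the usual order of filtering and then scaling. The prior had 9.62 degrees of freedom. Pair ratios used a prior count of 2. Alternatives were other scalings, filters, minimums and prior counts, a length correction, deposited FPKM (pseudocount 0.1), fits of 1 term over all libraries or over the 3 other than WT injected (both terms would leave no residual degree of freedom), limma-voom (limma 3.58.1) and DESeq2 1.42.0. Named genes were the 3 highest and 3 lowest ratios of each pair, the 4 highest and 3 lowest levels, members that passed a test, and a few chosen by role. Mrps34, Mrps16, Mrpl40, Mrpl46, Mrpl22, Mrpl36, Mrpl54, Mrpl44, Mrpl16, Mrpl3, Mrps30, Mrpl17 and several pathway genes were named after their values were seen. The steps were tested on simulated data.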

Additional observations from a re-analysis of the deposited data

Results flagged for a closer look

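In 4 members the same contrast pointed one way in 1 pair of libraries and the other way in the second pair, with each counting interval on its own side of 0. Mrpl17 had a genotype log2 ratio of 0.36 in the injected pair and -0.30 in the control pair, and an injection ratio of -0.32 in WT and 0.34 in Irf4-/- mice. Mrps12 had genotype ratios of 0.36 and -0.32 in the injected and control pairs, and Mrpl9 ratios of -0.10 and 0.13. Mrps16 had an injection ratio of -0.22 in WT and 0.21 in Irf4-/- mice. By the same rule, 3 of 73 members (4.11%) were opposite for genotype, against 7.76% of 9513 genes, and 2 of 74 (2.70%) for injection, against 6.62% of 9523 genes. These differences between pairs were not tested, because 1 library per group leaves no residual degree of freedom for an interaction. For Mrpl17 the genotype and injection values come from the same 4 libraries and are not separate observations.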

How the results depend on the processing

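Of the recomputed counts, medians and shares that answer a comparison, 156 stayed near the value given (counts within 1.5 times) and 8 did not. With TMM factors over all genes, 1 member (Mrps25) was lower for injection and 0 members were higher between the control libraries. Mrps25 then passed with a change of -0.55. With no filter on low counts 1 member, again Mrps25, was lower for injection. At a minimum of 20 CPM, 2 of 48 members were higher between the injected libraries (601 of 7181 genes), 0 higher and 1 of 48 lower between the control libraries (208 and 143 of 7182 genes), 2 of 49 lower for injection in WT (675 of 7177 genes) and 5 of 51 higher for injection in Irf4-/- mice (233 of 7191 genes). That minimum leaves fewer genes. Lars2 lost its call with DESeq2 (-0.51) and limma-voom (-0.51). In edgeR fits of a single term over the 3 libraries other than WT injected, which also drop the other term, the median log2 change of the members was -0.001 for genotype and 0.04 for injection. Of all genes, 146 were higher and 31 lower for genotype, against 299 and 146 with TMM factors over all genes, 326 and 152 with no filter, 261 and 113 with median-of-ratios scaling, 119 and 14 by DESeq2, 133 and 18 in those fits over 3 libraries and 3 and 2 with the other term left out over all 4. For injection 40 were higher and 47 lower, against 299 and 292, 311 and 303, 230 and 228, 34 and 39, 9 and 9, and 0 and 0 in the same order. The cause was not tested. No paired analysis was possible because each group has 1 library and the labels carry no replicate numbers. Members below about 5 CPM, such as Mrps6, could not be compared at this depth.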
